A study of Mus musculus with 12 samples.

Results

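Mammary tumours treated with an antibody against PD-1 on top of PLX and PTX were set against tumours treated with PTX alone, over all 750 endogenous probes of a tumour immunology panel of 784 probes. The 6 tumours labelled PLX+PTX+aPD-1, 3 with the title suffix R and 3 with the suffix NR, were pooled and called the aPD-1 tumours. Of the 750 probes, 615 reached 20 raw counts in 2 or more of the series' 12 libraries and were tested, and 135 did not.

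All tumours carried the MMTV-PyMT genotype, in which the viral MMTV promoter drives the polyoma middle T oncogene in mammary epithelium, and all were treated with PTX. The R and NR tumours received PLX, PTX and aPD-1, the 2 PLX+PTX tumours received no antibody, and the 2 PTX tumours received neither PLX nor an antibody. The aPD-1 tumours therefore differed from the PTX tumours by both PLX and the antibody, and the contribution of each cannot be told apart in this comparison. The series title names CSF1R inhibition and chemotherapy. The labels expand none of PLX, R and NR, and give no age, dose or time. RNA came from small pieces of whole snap-frozen tumour, and the labels do not say whether the tumours in a group are from separate mice. The p-values therefore reflect sample-to-sample spread that may be technical.

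CSF1R is the surface receptor through which macrophages receive their survival signals, its ligands being CSF1 and interleukin 34. Macrophages in mammary tumours take up debris and antibody-coated cells, present antigen on MHC class II molecules and secrete chemokines that draw in further monocytes. PD-1 is an inhibitory receptor on activated T cells, and antibodies that block it can release cytotoxic lymphocytes, which kill through granzymes and secrete interferon gamma. Whole-tumour RNA does not separate fewer cells of a type from less RNA per cell.

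Signal differed between the groups before any scaling. Total endogenous counts were 128083 to 349598 in R libraries and 318607 to 359627 in NR libraries, against 390582 and 531086 in PTX libraries. All 6 aPD-1 libraries lay below both PTX libraries, which gives an exact permutation p of 0.0714 (two-sided), the smallest that 6 against 2 allows over 28 splits. R replicate 2 had the least signal of these 8. Values below are normalised counts, that is, raw counts scaled on the geometric mean of the 20 housekeeping probes. A library's detection limit, set 2 SD above the average of its negative controls, came on this scale to 26.4, 50.6 and 34.2 in R, 21.6, 22.2 and 13.3 in NR, and 15.7 and 24.1 in PTX libraries. Of the tested probes, 359 lay above the limit in all 8 libraries and 40 in none.

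No gene passed the threshold. With edgeR's quasi-likelihood test, 0 of 615 probes (0%) had a Benjamini-Hochberg adjusted p under 0.05, and the smallest adjusted p was 0.207. DESeq2 and limma-voom also called 0. At an unadjusted p under 0.05, 41 probes were lower in aPD-1 tumours (6.67% of those tested) and 3 were higher (0.488%). Each gene difference below is thus a measured difference that did not pass the test over all probes.

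The nominal differences ran mostly one way, while the panel as a whole did not. The log2 fold change of aPD-1 over PTX was below 0 for 351 probes (57.1%) and above 0 for 264 (42.9%), with a median of -0.052. Scaling by TMM moved that median to 0.068 and left 258 of 615 probes below 0, so the panel-wide split follows the scaling. All 6 aPD-1 libraries lay below both PTX libraries for 52 probes (8.46%) and above both for 9 (1.46%). Of the 41 nominally lower probes, 25 were among those 52.

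A single PTX tumour carried much of this. PTX replicate 1 was the higher of the PTX pair for 36 of the 41 nominally lower probes, against 317 of all 615 tested (51.5%). Without PTX replicate 1, 8 probes were nominally lower and 2 higher, and 5 of the original 41 were among the lower ones. Without PTX replicate 2, edgeR's quasi-likelihood test called 6 probes at an adjusted p under 0.05, all lower in aPD-1 tumours, and 46 were nominally lower. Those 6 were Tlr8, S100a9, C5ar1, Ccl7, Tnfaip6 and Ccl2, with log2 fold changes of -1.74, -2.44, -2.05, -2.18, -2.15 and -1.94. In such a fit the lone PTX library is assumed to vary like the other groups.

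**Figure D1:**
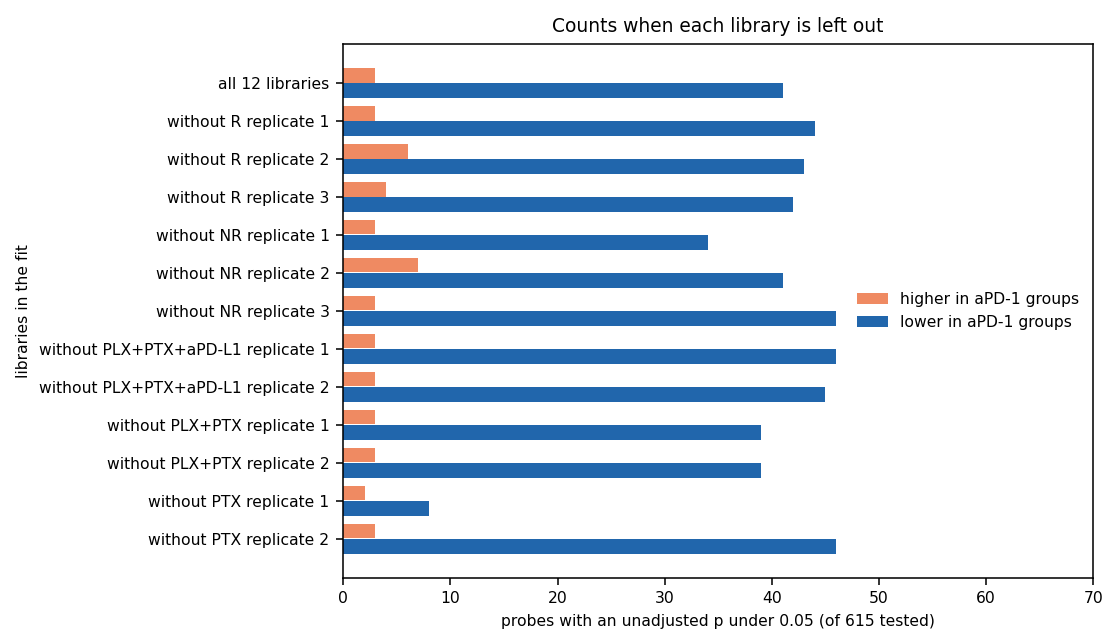
Horizontal bars give the number of the 615 tested probes with an unadjusted p under 0.05 that were higher (orange) or lower (blue) in aPD-1 than in PTX tumours, with all 12 libraries and with each library left out in turn. The lower bar is 41 with all libraries and shrinks to 8 without PTX replicate 1, and it lies between 34 and 46 whenever any other library is left out.

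Nearly all macrophage genes lay on the lower side in aPD-1 tumours. Of 33 genes listed for macrophages and monocytes, 25 were on the panel and 23 were tested. The list was chosen with earlier results of these data known. Of the 23 tested, 22 had log2 fold changes below 0, against 351 of 615 over all tested probes. The median of the 23 was -0.55, compared with -0.052 for all tested probes. At an unadjusted p under 0.05, 6 of the 23 were lower (6.67% over all tested probes) and 0 higher (0.488% over all). For 4 of the 23 all aPD-1 libraries lay below both PTX libraries (8.46% over all). TMM scaling left 20 of 23 below 0 (median -0.44). Without PTX replicate 1 the count below 0 was 19, the nominally lower ones numbered 1, and the median was -0.24; without PTX replicate 2 the median was -0.89.

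The receptor targeted by the inhibitor in the series title was measured in every library. Csf1r gave 148, 80.8 and 158 normalised counts in R tumours and 124, 66.9 and 114 in NR tumours, against 134 and 195 in PLX+PTX tumours and 320 and 133 in PTX tumours. PTX replicate 1 stood far above the rest, while PTX replicate 2 lay inside the range of the aPD-1 tumours. The log2 fold change of aPD-1 over PTX was -0.98 (SE 0.36, adjusted p = 0.437, edgeR) with all libraries and -0.21 (SE 0.44) without PTX replicate 1. Its ligand Csf1 gave 175 ± 37.4 normalised counts in aPD-1 tumours (SD, n = 6) and 175 ± 15.2 in PTX tumours (SD, n = 2).

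Mrc1 and Ms4a4a differed without overlap. Mrc1 encodes the mannose receptor CD206, a marker of alternatively activated macrophages. It gave 43.9, 70.9 and 41.3 normalised counts in R and 44.8, 41.7 and 54.3 in NR tumours, against 49.4 and 100.1 in PLX+PTX and 182 and 72.9 in PTX tumours. The highest aPD-1 value, from the low-signal R replicate 2, lay just under the lower PTX value. The log2 fold change was -1.38 (SE 0.38, adjusted p = 0.272, edgeR), and without PTX replicate 1 it was -0.57. Ms4a4a, a membrane protein of the MS4A family found on macrophages, gave 58.9, 35.5 and 73.0 normalised counts in R and 48.2, 30.7 and 34.8 in NR tumours, against 54.1 and 76.6 in PLX+PTX and 157 and 78.0 in PTX tumours. Here too every aPD-1 tumour was below both PTX tumours, by a log2 fold change of -1.34 (SE 0.33, adjusted p = 0.214, edgeR) that stood at -0.75 without PTX replicate 1. The Ms4a4a value of R replicate 2 was under its detection limit of 50.6. Cd163, the haemoglobin scavenger receptor, averaged 20.0 ± 5.91 in aPD-1 tumours (SD, n = 6), above the detection limit in none, and 39.7 ± 14.6 in PTX tumours (SD, n = 2). Its log2 fold change was -1.04 (adjusted p = 0.356), or -0.60 without PTX replicate 1.

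The smallest p on the panel belonged to an endosomal receptor for single-stranded RNA. Tlr8 gave 22, 21.7 and 25.0 normalised counts in R and 25.4, 26.7 and 27.9 in NR tumours, against 42.7 and 43.5 in PLX+PTX and 82.8 and 42.7 in PTX tumours. The aPD-1 values were closely spaced and all lay below the other 4, but the 3 R values were under the detection limit of their libraries. The log2 fold change was -1.34 (SE 0.27, adjusted p = 0.207, edgeR). It was -0.78 with PTX replicate 1 left out, and over the alternatives run its adjusted p lay between 0.017 and 0.998. Tlr7, the neighbouring sensor in function, averaged 27.4 ± 6.62 in aPD-1 tumours (SD, n = 6) and 52.0 ± 22.5 in PTX tumours (SD, n = 2). These were again without overlap, with a log2 fold change of -0.95 (adjusted p = 0.273, edgeR) that was -0.42 without PTX replicate 1. The Tlr7 value of R replicate 2 was under its detection limit of 50.6.

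Other pan-macrophage genes pointed the same way with overlapping groups. Cd68, a lysosomal glycoprotein used as a general macrophage marker, averaged 133 ± 39.7 normalised counts in aPD-1 tumours and 225 ± 93.7 in PTX tumours (log2 fold change -0.75, adjusted p = 0.667). The complement component genes C1qa and C1qb had log2 fold changes of -0.77 and -0.96, Adgre1, which encodes F4/80, -0.66, and the lipoprotein gene Apoe -0.61. Without PTX replicate 1 they were -0.35, -0.38, -0.12 and -0.26, and that of Cd68 was -0.24. In each of these 4 the PTX replicate 2 value was within the range of the aPD-1 tumours. R replicate 2 was the lowest of all 6 aPD-1 tumours for C1qa, C1qb and Apoe (173, 150 and 1944 normalised counts).

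Arg1 was the single tested macrophage gene above 0. It encodes arginase 1, which consumes arginine and marks suppressive myeloid cells. It gave 303, 150 and 264 normalised counts in R and 805, 115 and 453 in NR tumours, against 156 and 213 in PLX+PTX and 60.0 and 268 in PTX tumours. The values spread widely in both groups and overlapped, and the log2 fold change of 1.02 had an SE of 0.74 (adjusted p = 0.901, edgeR). It was 0.31 without PTX replicate 1 and 2.46 without PTX replicate 2.

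Summed over the tested macrophage genes, the levels were 10821, 4492 and 9014 normalised counts in R and 8206, 5954 and 7188 in NR tumours, against 8270 and 13070 in PLX+PTX and 13746 and 9006 in PTX tumours. R replicate 1 and R replicate 3 lay above PTX replicate 2, and the sum is dominated by Apoe. Against PLX+PTX, the median log2 fold change of the 23 genes was -0.52 in aPD-1 tumours, with 21 below 0. Without PLX+PTX replicate 2 that median was -0.27. The PLX+PTX and PTX comparisons share the aPD-1 libraries and are not independent.

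**Figure D2:**
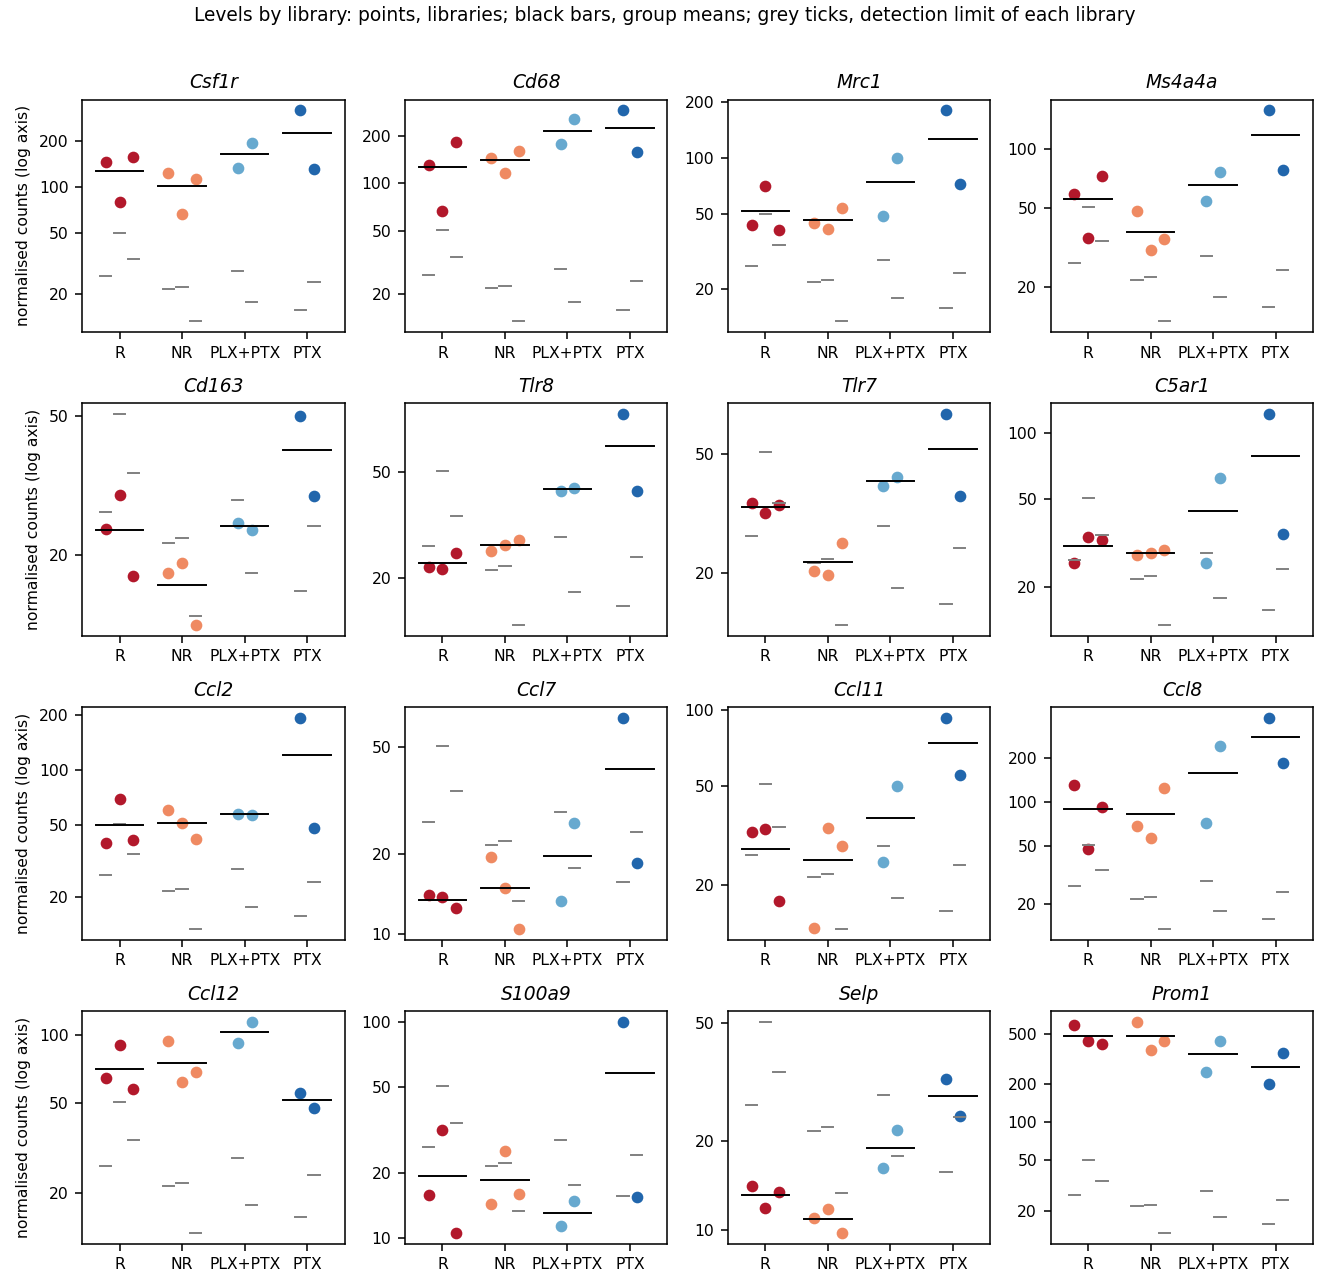
Normalised counts (log axis) of 16 genes in each library of the R, NR, PLX+PTX and PTX groups; points are libraries, black bars group means and grey ticks the detection limit of each library. In Csf1r, Ccl2, C5ar1 and S100a9 PTX replicate 1 stands apart from all other tumours, while Mrc1, Ms4a4a, Tlr8, Ccl8, Ccl11 and Selp have both PTX tumours above all aPD-1 tumours; Ccl12 and Prom1 have both below.

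Several chemokines that recruit monocytes and other leukocytes were lower in aPD-1 tumours. Of 18 fixed myeloid chemokines, 15 were tested, with 11 below 0 (57.1% over all tested probes), a median log2 fold change of -0.33, 6 nominally lower (6.67% over all) and 0 nominally higher. With PTX replicate 1 left out, 10 were below 0, the median was -0.21 and 0 were nominally lower. Ccl8, which encodes monocyte chemoattractant MCP-2, gave 130.1, 47.3 and 92.3 normalised counts in R and 68.5, 56.6 and 125 in NR tumours, against 72.2 and 242 in PLX+PTX and 379 and 184 in PTX tumours. Both PTX tumours lay above all 6 aPD-1 tumours, of which R replicate 2 was under its detection limit of 50.6 for Ccl8. The log2 fold change of Ccl8 was -1.69 (SE 0.46, adjusted p = 0.269, edgeR), and -1.08 without PTX replicate 1.

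Ccl2, Ccl7, Ccl11, Ccl12 and Ccl8 follow each other on chromosome 11 in RefSeq's annotation, with the noncoding gene Gm38913 between Ccl11 and Ccl12. Ccl2, the principal monocyte attractant, gave 39.6, 69.0 and 41.3 normalised counts in R and 60.0, 51.1 and 41.8 in NR tumours, against 57.0 and 56.6 in PLX+PTX and 192 and 47.9 in PTX tumours. PTX replicate 1 alone was high, and the log2 fold change of -1.27 (adjusted p = 0.396) was 0.061 without it. Ccl7, a relative of Ccl2 acting on the same receptor, was above the detection limit in 0 aPD-1 tumours and in PTX replicate 1 only, at 64.5 there against 18.4 in PTX replicate 2. Ccl11, which encodes the eosinophil attractant eotaxin, averaged 26.5 ± 8.90 in aPD-1 tumours (SD, n = 6) and 74.3 ± 27.0 in PTX tumours (SD, n = 2). The groups did not overlap (log2 fold change -1.50, adjusted p = 0.272, edgeR). The Ccl11 value of R replicate 2 was under its detection limit of 50.6.

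Ccl12, which lies beside Ccl8, was on the other side of PTX. This mouse monocyte attractant gave 65.0, 90.6 and 57.7 normalised counts in R and 94.7, 62.1 and 69.0 in NR tumours, against 92.1 and 114.9 in PLX+PTX and 55.6 and 47.9 in PTX tumours. All 6 aPD-1 tumours were above both PTX tumours and all lay above their detection limits. The log2 fold change was 0.49 (SE 0.29, adjusted p = 0.834, edgeR), with a range of 0.37 to 0.60 over the alternatives run.

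The upstream sequences of this pair, the 250 bases before each start in RefSeq's GRCm38.p6 table on the plus strand, are shown because the neighbours lay on opposite sides of PTX. They are Ccl8 at chr11:82114935-82115184 and Ccl12 at chr11:82101595-82101844, with capitals marking runs of 8 or more bases that both share.
Ccl8: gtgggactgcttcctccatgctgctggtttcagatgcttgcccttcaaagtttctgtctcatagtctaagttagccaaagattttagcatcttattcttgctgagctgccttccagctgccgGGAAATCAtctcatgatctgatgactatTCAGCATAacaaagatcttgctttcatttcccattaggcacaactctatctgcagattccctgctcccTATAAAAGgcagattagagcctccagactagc
Ccl12: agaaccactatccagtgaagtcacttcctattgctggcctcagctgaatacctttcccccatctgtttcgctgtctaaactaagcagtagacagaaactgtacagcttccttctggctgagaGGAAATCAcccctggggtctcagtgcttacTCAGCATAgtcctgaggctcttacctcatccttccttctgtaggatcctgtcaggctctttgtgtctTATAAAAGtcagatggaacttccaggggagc
The shared runs numbered 3 and covered 24 bases in each sequence, and a global alignment gave 63.4% identity (147 identical bases, 85 mismatches and 36 gap positions). The TATAAAA motif, searched on both strands, began 32 bases before the start of Ccl8 and 31 before that of Ccl12 and overlaps the last run; 4.98% of 32851 promoter windows of the same length hold it.

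Chemokines outside that block gave values on both sides. Ccl9, a mouse monocyte attractant, averaged 180 ± 50.7 normalised counts in aPD-1 tumours (SD, n = 6), against 784 and 206 in PTX tumours. Its log2 fold change of -1.47 was -0.20 without PTX replicate 1. Cxcl1, a neutrophil attractant, averaged 46.0 ± 8.57 in aPD-1 tumours and 75.5 ± 18.3 in PTX tumours with no overlap (log2 fold change -0.72, adjusted p = 0.457, edgeR, or -0.45 without PTX replicate 1). Ccl20, the ligand of the T cell and dendritic cell receptor CCR6, had a log2 fold change of 0.86 and was above the detection limit in none of these 8 libraries.

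C5ar1, Tnfaip6 and S100a9, which act in inflammation, were highest in PTX replicate 1 among the 8 libraries compared. C5ar1, the receptor for the complement fragment C5a, lay between 25.5 and 33.5 normalised counts in all 6 aPD-1 tumours (median 28.8), against 122 and 34.6 in PTX tumours. The aPD-1 tumours were all below both, though only narrowly below PTX replicate 2. The C5ar1 values of R replicate 2 and R replicate 3 were under their detection limits of 50.6 and 34.2. Tnfaip6, an inflammation-induced protein that binds hyaluronan, averaged 38.5 ± 11.6 in aPD-1 tumours, against 168 and 53.7 in PTX tumours. S100a9, a calcium-binding protein abundant in neutrophils, averaged 18.9 ± 7.83 in aPD-1 tumours (SD, n = 6), against 100.1 and 15.5 in PTX tumours. Its values in R replicate 2 and PTX replicate 2, and not only those, were under their detection limits, which were 50.6 and 24.1 for these libraries. The aPD-1 mean of S100a9 was itself under the limits of every R library (26.4, 50.6 and 34.2) and of NR replicates 1 and 2 (21.6 and 22.2). The log2 fold changes of C5ar1, Tnfaip6 and S100a9 were -1.42, -1.55 and -1.67 with all libraries and -0.23, -0.50 and 0.24 without PTX replicate 1. The summed level of the 8 tested neutrophil and granulocytic genes, S100a9 among them, did not share that order. It was 596, 3270 and 723 normalised counts in R and 718, 2129 and 528 in NR tumours, against 1258 and 843 in PTX tumours. A sum follows its most abundant members. Of the 8 genes, 5 had log2 fold changes below 0 (57.1% over all tested probes) and 3 were nominally lower (6.67% over all). Their median was -0.28, and 0.0054 without PTX replicate 1.

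Vessel and matrix genes among the smallest p had both PTX tumours high but lay near background. Selp encodes P-selectin, which lets leukocytes roll on activated endothelium. It gave 14.1, 11.8 and 13.5 normalised counts in R and 11, 11.8 and 9.75 in NR tumours, against 16.1 and 21.8 in PLX+PTX and 32.2 and 24.3 in PTX tumours. No aPD-1 tumour was above its detection limit for Selp, so its log2 fold change of -1.24 (SE 0.29, adjusted p = 0.214, edgeR) sets values under the limit against a low signal. Loxl2, a collagen-crosslinking enzyme, averaged 15.8 ± 2.97 in aPD-1 tumours (SD, n = 6) and 34.4 ± 8.0 in PTX tumours (SD, n = 2), a log2 fold change of -1.15 (adjusted p = 0.214). Without PTX replicate 1 the values were -1.01 for Selp and -0.89 for Loxl2. The medians of their lists were -0.059 over 17 endothelial and -0.015 over 13 fibroblast and matrix genes. Single libraries moved both: the endothelial median was -0.24 without PTX replicate 2, and the fibroblast and matrix median was -0.26 without PTX replicate 1 and -0.24 without R replicate 2.

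**Figure D3:**
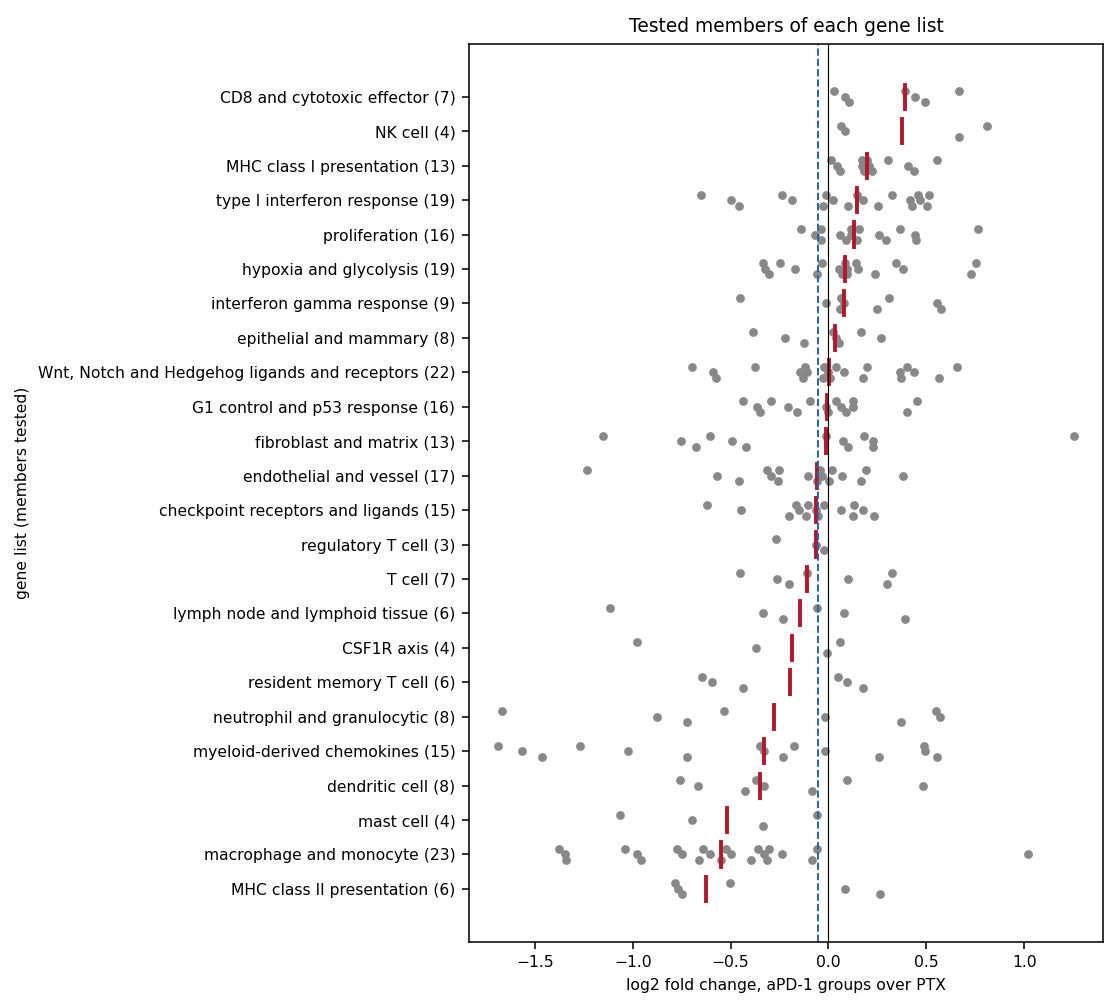
Each grey point is the log2 fold change (aPD-1 over PTX) of a tested member of a gene list, each red bar the median of the list, and the dashed blue line the median of all 615 tested probes (-0.052); numbers in brackets are tested members, and lists with fewer than 3 are left out. The macrophage and MHC class II lists lie lowest by median, at -0.55 and -0.63, and the CD8 and cytotoxic list highest, at 0.39.

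The MHC classes lay on opposite sides of 0. For class I, the proteasome, peptide transporter and heavy chain genes that load peptides for CD8 T cells, 13 of 13 tested members were above 0 with a median of 0.20, and under TMM scaling the median was 0.31. Without PTX replicate 1, 2 of the 13 were below 0 and the median was 0.13. Set against PLX+PTX instead, 11 of the 13 were below 0 with a median of -0.13. That median was 0.12 without PLX+PTX replicate 1 and -0.38 without PLX+PTX replicate 2. Psmb8 and Psmb9, subunits of the immunoproteasome, averaged 949 ± 221 and 286 ± 117 normalised counts in aPD-1 tumours (SD, n = 6), against 701 ± 29.5 and 195 ± 52.9 in PTX tumours (SD, n = 2). B2m, the light chain of all class I molecules, averaged 6859 ± 2315 in aPD-1 and 5882 ± 233 in PTX tumours. The groups overlapped for every class I gene, and 0 of 13 were nominally higher. Over all tested probes, 42.9% were above 0 and 0.488% nominally higher. H2 heavy chain genes are near-identical in sequence, so their probes may share signal.

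Class II genes, expressed mainly by antigen-presenting cells, lay below 0 where they were abundant. Cd74, the invariant chain, gave 1529, 628 and 1198 normalised counts in R and 844, 791 and 1152 in NR tumours, against 1745 and 1853 in PLX+PTX and 2462 and 1018 in PTX tumours. PTX replicate 2 lay within the aPD-1 range. Its log2 fold change was -0.77 (adjusted p = 0.834, edgeR), and those of the chains H2-Aa and H2-Ab1 were -0.78 and -0.75. H2-Ob and H2-DMa, both near background, were at 0.26 and 0.084. The list median over 6 genes was -0.63, and -0.047 without PTX replicate 1.

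Lymphocyte transcripts were close to the detection limit, which bounds what this comparison can show. Of 16 T cell genes on the panel 7 were tested, and 1 of the 16 exceeded the limit in at least 6 libraries. Cd8a, Pdcd1, Foxp3, Ifng and Cxcl9 were among the 135 probes not tested. All 7 tested CD8 and cytotoxic effector genes had log2 fold changes above 0 (42.9% over all tested probes), with a median of 0.39. None was nominally higher, against 0.488% over all. With PTX replicate 1 left out, 2 of the 7 were below 0, and with the negative controls subtracted also 2. Set against PLX+PTX instead, 6 of the 7 were below 0 with a median of -0.25. Of the 14 on the panel, 1 exceeded the limit in at least 6 libraries. That one was Ccl5, a T cell attractant, with 134, 51.2 and 57.7 normalised counts in R and 49.9, 29.9 and 51.5 in NR tumours, against 75.0 and 67.9 in PLX+PTX and 38.9 and 46.4 in PTX tumours. R replicate 1 was high and the other aPD-1 values surrounded those of PTX (log2 fold change 0.49, SE 0.43, adjusted p = 0.952).

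R and NR tumours had different cytotoxic medians against the same PTX libraries. The median over the 7 genes was 0.82 in R and 0.04 in NR tumours. Gzmb, which encodes the cytotoxic protease granzyme B, gave 43.9, 29.6 and 31.7 normalised counts in R and 11, 14.2 and 13.9 in NR tumours, against 21.8 and 32.2 in PLX+PTX and 22.2 and 17.7 in PTX tumours. R values were above both PTX values and NR values below both, and the pooled log2 fold change was 0.10. The values of R replicates 2 and 3, NR replicates 1 and 2 and PTX replicate 2 were under the detection limits of their libraries. R libraries had the higher scaled background, with negative controls at 19.2 to 23.9 in R, 9.32 to 13.7 in NR, and 10.7 and 14.1 in PTX libraries, and its part in this difference was not tested. Considered on their own, R against PTX and NR against PTX gave 0 called probes each (0% in both) and 42 nominal ones each, with smallest adjusted p of 0.245 and 0.297. The direct test of R minus NR gave 0 called and 42 nominal, and limma on the deposited log2 values called 3.

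The type I interferon response genes showed no common direction against PTX. Of 19 tested type I interferon response genes, 12 were above 0 (42.9% over all tested probes) with a median of 0.15, and 0 were nominally different. The median was 0.28 without PTX replicate 1 and 0.067 without R replicate 2. Isg15, a ubiquitin-like antiviral protein, gave 315, 512 and 581 normalised counts in R and 768, 208 and 185 in NR tumours, against 1137 and 441 in PLX+PTX and 359 and 259.9 in PTX tumours. The aPD-1 tumours spanned the PTX values, and PLX+PTX replicate 1 was highest. Against PLX+PTX all 19 were below 0 with a median of -0.54, and without PLX+PTX replicate 1 there were 13 below 0 and a median of -0.023. Of 9 tested interferon gamma response genes, 7 were above 0 against PTX (42.9% over all tested probes), with a median of 0.079 and 0 nominally different. TMM scaling left 1 of the 9 below 0, and leaving out PTX replicate 1 left 4 below 0.

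The 8 tested epithelial genes had a median log2 fold change of 0.032, which was -0.10 without R replicate 2. Epcam, an epithelial adhesion molecule, averaged 6662 ± 1097 normalised counts in aPD-1 tumours (SD, n = 6) and 6405 ± 181 in PTX tumours (SD, n = 2). The proliferation antigen gene Mki67 averaged 1854 ± 373 in aPD-1 and 1893 ± 11.8 in PTX tumours. Of 16 tested proliferation genes 12 were above 0 (42.9% over all tested probes), with a median of 0.13 that was 0.083 without PTX replicate 1. In 1 of the 16 all aPD-1 values exceeded both PTX values (1.46% over all). This was Ube2t, a ubiquitin-conjugating enzyme of DNA crosslink repair, with 104 to 140.3 in aPD-1 tumours against 78.4 and 97.2 in PTX tumours. Its log2 fold change was 0.44 (adjusted p = 0.834, edgeR). Spp1, which encodes osteopontin, averaged 34870 ± 15129 in aPD-1 tumours and 50077 ± 2106 in PTX tumours, and its NR replicate 2 value of 60199 lay above both PTX values.

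Among higher genes, Prom1 was the abundant one. It encodes the membrane protein CD133, a marker of progenitor-like epithelial cells. It gave 583, 435 and 415 normalised counts in R and 619.6, 370.5 and 439 in NR tumours, against 249 and 438 in PLX+PTX and 200.2 and 349 in PTX tumours. All 6 aPD-1 tumours lay above both PTX tumours, and the log2 fold change was 0.80 (SE 0.34, adjusted p = 0.567, edgeR), or 0.45 without PTX replicate 1. Fgf13, a non-secreted member of the fibroblast growth factor family, and Ccl20 were the other nominally higher probes. Fgf13 gave 35.2, 33.5 and 25.0 in R and 11, 15.7 and 9.75 in NR tumours, against 10.6 and 11 in PTX tumours. The R tumours were all above both PTX tumours and the NR tumours around them. Of the 6 aPD-1 values 1 was above its detection limit, and both PTX values were under theirs (15.7 and 24.1). Scaled negative controls were at 19.2 to 23.9 in R against 10.7 and 14.1 in PTX libraries, and their part in this order was not tested. Vhl, Nfkbie and Hmga1, which encode a degrader of hypoxia-inducible factors, an NF-kappaB inhibitor and a chromatin protein, were higher in all 6 aPD-1 tumours with log2 fold changes at 0.51, 0.56 and 0.58 and adjusted p-values of 0.834, 0.728 and 0.728 (edgeR).

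**Figure D4:**
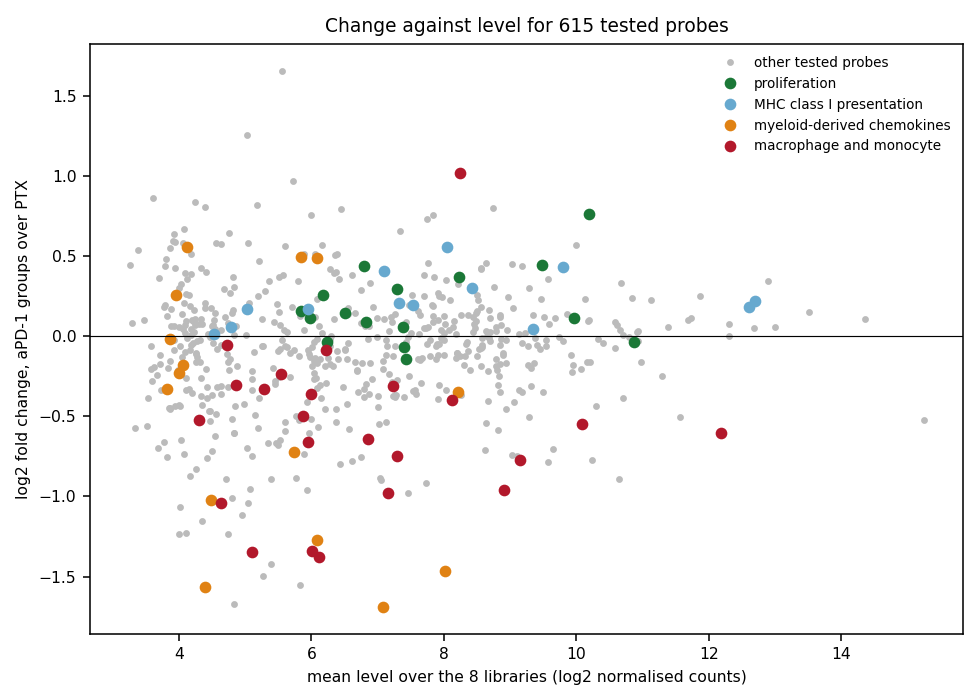
Each point is 1 of the 615 tested probes, with its mean level over the 8 libraries (log2 normalised counts) on the horizontal axis and its log2 fold change, aPD-1 over PTX, on the vertical axis. Macrophage genes (red) and myeloid chemokines (orange) lie mostly below 0, the abundant macrophage gene Apoe among them. The 13 MHC class I genes (light blue) all lie above 0, including the abundant H2-D1 and B2m.

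Direction also varied with level. Of the 40 tested probes above the detection limit in none of the 8 libraries, 28 were above 0 and their median was 0.18. For the 359 above it in all 8, 197 were below 0 with a median of -0.025, and 15 were nominally lower. Subtracting the negative controls before scaling moved the median of all tested probes to -0.24 and that of the macrophage list to -1.0.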

How the data were processed

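RNA of 12 mammary tumours in 5 groups was profiled on NanoString's nCounter Mouse PanCancer IO360 panel after cDNA synthesis and multiplex target enrichment, per the labels' protocols. The deposited raw file gives whole-number counts for 784 probes (750 endogenous, 20 housekeeping, 6 positive and 8 negative controls), per the file headers. A second deposited table holds log2 values of the same genes; DESeq2 and limma appear in the submitters' processing notes, and how the log2 values were made, or on which genome build, was not given in the sources used here.

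From the counts, library sizes were set by the housekeeping geometric mean, and endogenous probes with 20 or more counts in at least 2 libraries were fitted with edgeR 4.0.16 (quasi-likelihood test, R 4.3.3) as 5 group means over all 12 libraries, leaving 7 residual degrees of freedom. The comparison was the average of the R and NR means minus the PTX mean, and p-values were adjusted over all 615 probes by Benjamini-Hochberg with a threshold of 0.05. Alternatives numbered 23, plus 1 (total endogenous counts as library size) chosen after seeing the data; they included DESeq2 1.42.0, limma 3.58.1 on the deposited log2 values, other scalings and leaving out each library. The edgeR step was tested on simulated counts, and the DESeq2 and limma steps were not.

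The genes and the 25 gene lists were chosen with earlier results of these data known. Genes named by rule were the 12 of smallest p in each direction, up to 3 of smallest p per list, and 16 fixed genes. Other genes named here, among them C1qa, C1qb, Apoe, Adgre1, Arg1, Ccl9, B2m, H2-D1, H2-Ob, H2-DMa, Isg15 and all of the first paragraph of the other observations, were picked after their values were seen. One gene is not reported here. Of 770 endogenous and housekeeping probe accessions, 748 matched a RefSeq table of GRCm38.p6, 742 under the same symbol. Libraries of 1 group differed beyond sampling noise (lowest chi-square per degree of freedom 15.9). Total endogenous counts per library are in the report, and barcode counts after amplification are not independent molecules, so depth sets counting error only.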

Additional observations from a re-analysis of the deposited data

Results flagged for a closer look

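Of 97 genes examined among the 6 aPD-1 libraries, 7 had 1 library farther from the rest than Dixon's 95% critical value for 6 samples allows. Chance alone puts about 1 in 20 such groups past that value. R replicate 2, the library with the least signal, was the highest in 5 of them. These were Cebpb, a myeloid and epithelial transcription factor, at 3057 normalised counts against 2502 to 2677 in the other 5, Wnt5b at 924 against 484 to 629, Ccl19 at 35.5 against 11.8 to 19.2, Hdc at 29.6 against 3.48 to 10.5, and Ifng at 9.85 against 3.38 to 5.27. The last 3 lay under the detection limit of that library, which was 50.6. R replicate 1 was the highest for Ccl5, at 134 against 29.9 to 57.7, and for Cd8a, the CD8 alpha chain, at 23.7 against 7.08 to 11.8. The limit of R replicate 1 was 26.4, so its Cd8a value was not above background while its Ccl5 value was.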

How the results depend on the processing

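The count of genes called for aPD-1 against PTX stayed at 0 under every alternative except one. Leaving out each library in turn gave 0 to 6 calls, and the 6 came without PTX replicate 2. For NR against PTX that range was 0 to 9, with the 9 again without PTX replicate 2. R against PTX gave 3 calls with limma on the deposited log2 values (Il22ra1, Cxcl11 and Fgf13, all higher, named after their values were seen) and 1 with the negative controls subtracted (Tlr8, lower). R minus NR gave 3 calls with limma on the deposited log2 values (Tdo2, Cntfr and Fgf13, all higher in R). The cause of these moves was not tested, beyond the spread that 1 lone PTX library leaves out. At an unadjusted p under 0.05, leaving out libraries gave 10 to 49 genes, and TMM scaling gave 11 higher and 32 lower.

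Among 58 tested genes named in the text, 9 changed sign when some library was left out, the cause of which was not tested. Their log2 fold changes ran from -1.94 to 0.061 for Ccl2, -1.27 to 0.0024 for Cd74, -0.11 to 0.087 for Csf1, -0.011 to 0.12 for Epcam, -0.045 to 0.29 for Gzmb, -0.068 to 0.25 for H2-DMa, -0.029 to 0.71 for Isg15, -0.091 to 0.056 for Mki67 and -2.44 to 0.24 for S100a9. The highest values of Ccl2, Cd74, Csf1 and S100a9 were those without PTX replicate 1. Csf1 was also above 0 with TMM (0.11), median-of-ratios scaling (0.091), total endogenous counts (0.087) and the deposited log2 values (0.14). Mki67 was above 0 with TMM (0.083), median-of-ratios scaling (0.061) and total endogenous counts (0.065), and Epcam was at -0.012 with the deposited log2 values. With negative controls subtracted, Gzmb was at -0.63 and H2-DMa at -0.79. Of all 92 genes the naming rule took among those tested, 23 changed sign somewhere, 6 of them with a change above 0.5 in size.

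No paired analysis was possible because the sample numbers in the labels are unique, so no number is shared between groups. The PTX group had 2 libraries, both deeper than every aPD-1 library, and lymphocyte genes were mostly under the detection limit.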

Other observations

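Beyond the macrophage list, other genes of myeloid cells were among the 41 nominally lower probes. Fcgr2b, the inhibitory Fc gamma receptor, averaged 142 ± 36.1 normalised counts in aPD-1 tumours (SD, n = 6) and 281 ± 146 in PTX tumours (SD, n = 2), with all 6 aPD-1 tumours below both PTX tumours (log2 fold change -0.98, adjusted p = 0.400, edgeR). Fc gamma receptors are close relatives, and their probes may share signal. Axl, a receptor for apoptotic cells, averaged 109 ± 14.3 in aPD-1 and 200.3 ± 85.5 in PTX tumours, without overlap (log2 fold change -0.88, adjusted p = 0.396). Ptprc, which encodes the pan-leukocyte antigen CD45, averaged 72.5 ± 23.9 in aPD-1 and 127 ± 22.4 in PTX tumours, also without overlap (log2 fold change -0.80, adjusted p = 0.557). Without PTX replicate 1 these 3 were at -0.32, -0.36 and -0.60. Genes not restricted to myeloid cells were there too. Cxcl14, an epithelial chemokine, gave 94.7 to 129.8 in aPD-1 tumours, against 200.2 and 205 in PTX tumours. The immediate early gene Egr1 averaged 445 ± 102 in aPD-1 and 744 ± 49.5 in PTX tumours. For both genes the PTX tumours were all above the aPD-1 tumours, and the log2 fold changes were -0.90 and -0.74 (adjusted p = 0.437 and 0.500, edgeR), and -0.91 and -0.67 without PTX replicate 1. Thbd, the endothelial anticoagulant receptor thrombomodulin, averaged 20.0 ± 5.03 in aPD-1 and 47.5 ± 3.56 in PTX tumours. Its log2 fold change was -1.23 (adjusted p = 0.415, edgeR), and -1.31 without PTX replicate 1. The Thbd values of R replicate 2 and R replicate 3 were under their detection limits of 50.6 and 34.2.

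The remaining lists are given against all tested probes, with a median of -0.052, 57.1% below 0 and 42.9% above 0. Of 8 tested dendritic cell genes 6 were below 0 (median -0.35), of 8 neutrophil genes 5 (median -0.28), of 4 mast cell genes 4 (median -0.52), and of 7 T cell genes 4 (median -0.11). Leaving out PTX replicate 1 gave medians of -0.20 for dendritic cell, 0.0054 for neutrophil and -0.28 for mast cell genes, and leaving out PTX replicate 2 gave 0.14 for T cell genes. The 4 NK cell genes were all above 0 (median 0.38; without PTX replicate 1, 2 of 4 were below 0), and 0 of the 7 measured exceeded the detection limit in at least 6 libraries. Of 15 checkpoint genes 10 were below 0 (median -0.063, or -0.0033 without PTX replicate 2). Icosl, the ligand of the T cell costimulator ICOS, was lower in all 6 aPD-1 tumours than in both PTX tumours. It averaged 20.5 ± 5.18 against 31.6 ± 0.938 (adjusted p = 0.516, edgeR). The Icosl values of R replicate 2 and R replicate 3 were under their detection limits of 50.6 and 34.2. Glycolysis and hypoxia genes had 12 of 19 above 0 (median 0.087, or 0.14 without PTX replicate 1), and Wnt, Notch and Hedgehog genes 11 of 22 above 0 (median 0.0033, or 0.21 without PTX replicate 2).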
